A study of Mus musculus with 40 samples.

Results

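The genes of 4 opioid receptors, 1 opioid peptide precursor and 5 proteins of the endocannabinoid system were followed through RNA-seq of the mouse striatum. They were chosen by symbol, as the rows of the deposited count table named Oprm1, Oprd1, Oprk1, Oprl1, Pnoc, Cnr1, Dagla, Mgll, Faah and Napepld, which are 10 of 24060 gene rows. All 10 were counted in every one of the 40 libraries and passed the filter on low counts in all 9 comparisons. The lowest single value was 15 reads, for Pnoc, and the other 9 genes had at least 160 reads in each library.

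The libraries fall into 10 groups of 4. The astrocyte cohort is wild-type C57/BL6NTac mice, labelled Control, with an input and an immunoprecipitate (IP) from each animal. The neuron cohort is C57/BL6NTac mice labelled WT, with 4 inputs and 4 SynIP libraries. In the RiboTag method an adeno-associated virus (AAV) gives cells an HA-tagged copy of the ribosomal protein Rpl22, from the GfaABC1D promoter for astrocytes or the hSYN1 promoter for neurons, and ribosome-bound RNA is pulled down through the tag. The input is RNA of the whole lysate before the pull-down, from tagged and untagged cells alike. Both viruses were injected into the dorsal striatum at 6 weeks of age. The SAPAP3 cohort has input and IP of 4 C57/BL6J WT mice and of 4 C57/BL6J-Dlgap3 KO mice, which lack the postsynaptic scaffold protein SAPAP3 and had been injected at 4.5 months. A further 4 WT and 4 Sapap3KO libraries hold bulk striatal RNA from mice that are all labelled C57/BL6NTac, and the same animal number stands on 1 bulk library of each genotype. The study's methods state no age at injection for the S3 WT mice and no age for the mice of the bulk RNA. The labels name the virus only for the neuron IP. The cohort labelled Control is called astrocyte here from the study's methods and from the markers below, and no cell type is given by the labels for the IP of the SAPAP3 cohort.

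Opioid and cannabinoid receptors are G protein-coupled receptors that couple to Gi and Go proteins and lower transmitter release and excitability. In the striatum opioid peptides are made by medium spiny neurons, with enkephalin in indirect pathway cells and dynorphin in direct pathway cells. Endocannabinoids are lipids made on demand that act backward across the synapse on the CB1 receptor. The lipid 2-arachidonoylglycerol (2-AG) is made by diacylglycerol lipase and broken down mainly by monoacylglycerol lipase, whereas anandamide can be made by N-acyl phosphatidylethanolamine phospholipase D and is hydrolysed by fatty acid amide hydrolase.

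Between 23438112 and 84109800 reads were counted per library, so that sampling error is small for 9 of the 10 genes and largest for Pnoc. All 10 astrocyte markers were higher in the astrocyte IP than in its input, with a median log2 fold change (log2(FC)) of 3.02. They were also higher, 10 of 10, in the S3 WT IP (median 2.22) and in the S3 KO IP (median 2.33). All 10 neuron markers were higher in the neuron IP (median 0.58), while 8 of 10 astrocyte markers were lower there. Their summed level in the neuron IP was still 3120 to 3480 CPM (reads of a gene over all reads of the library, scaled to a common depth), against 5840 to 6360 CPM in its input. Conversely, the summed neuron markers stood at 4720 to 5070 CPM in the astrocyte IP and at 7290 to 7640 CPM in its input, so neither IP was free of the other cell type. Of 8 interneuron markers, 6 were higher in the astrocyte IP, 5 in each S3 IP and 7 in the neuron IP. Chat, which makes acetylcholine, rose from 31 to 144 CPM in the astrocyte cohort, and the part of this neuronal RNA in the results was not tested. Of 6 oligodendrocyte markers, 4 were higher in each S3 IP and 6 were lower in the neuron IP. Microglial and endothelial markers were lower in every IP, with median log2(FC) between -5.61 and -2.94. Dlgap3, the gene targeted in the KO, had 166 to 200 CPM in S3 KO inputs against 376 to 514 CPM in S3 WT inputs, 49.8 to 87.2 against 154 to 212 CPM in the IP, and 144 to 161 against 232 to 385 CPM in bulk RNA. The groups did not overlap in any of the 3 pairs.

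Some libraries stood apart. Summed over 4 markers of cortical projection neurons (Slc17a7, Neurod6, Neurod2 and Tbr1, chosen after their values were seen), the input of S3 WT animal 1 had 78.4 CPM and the other 3 S3 WT inputs had 551 to 709 CPM. Bulk WT libraries 2 and 3 had 246 and 203 CPM, against 783 and 980 CPM in the other two. The astrocyte cohort was low throughout, with inputs from 74 to 109 CPM, whereas the neuron cohort inputs had 699 to 943 CPM. The cohorts also differed in sex, with Xist, the RNA of the inactive X chromosome, at no more than 0.0405 CPM in the astrocyte cohort and 189 to 281 CPM in neuron cohort inputs. Gapdh, a glycolytic gene present in all cells, was counted at 608 to 660 CPM in astrocyte cohort inputs but at no more than 5.94 CPM in the inputs of the other cohorts and in bulk RNA, chosen after its values were seen. Levels were therefore tested within a cohort only, and the test between cohorts was made on IP over input ratios. Where levels of different cohorts stand side by side they are a description, with no test.

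The genes lie on 8 chromosomes of GRCm38.p6, the assembly of mm10. Oprm1 lies on chromosome 10 (6758593 to 7038209, plus strand), Oprk1 on chromosome 1 (5588450 to 5606134, plus), Oprl1 on chromosome 2 (181715000 to 181720985, plus) and Pnoc on chromosome 14 (65400673 to 65425564, minus). Dagla lies on chromosome 19 (10245265 to 10304877, minus), Mgll on chromosome 6 (88724412 to 88828360, plus) and Napepld on chromosome 5 (21662901 to 21701622, minus). Oprd1 (chromosome 4, 132110188 to 132144486, minus strand) and Faah (chromosome 4, 115996668 to 116018837, minus strand) are the closest to Dlgap3, at 4.87 and 11.15 Mb. Cnr1 is on the same chromosome at 93.22 Mb (33923171 to 33948831, plus strand). Exons of Oprm1 share 68 bases with Ipcef1 on the opposite strand, which is 1.05% of the exon length of Oprm1. Without a stated strand setting of the counter, reads there cannot be told apart. No other gene of the 10 shared exon bases with an annotated neighbour.

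Oprd1 and Mgll were the members that stood higher in the IP than in the input in both the astrocyte cohort and the S3 WT mice. The 250 bases before their annotated RefSeq start sites (GRCm38.p6) are shown for that reason, 5′ to 3′ on the strand of the gene, with the GC box GGGCGG or its reverse complement CCGCCC in capitals. Oprd1 covers chr4:132144487-132144736 on the minus strand, and Mgll covers chr6:88724162-88724411 on the plus strand.
Oprd1: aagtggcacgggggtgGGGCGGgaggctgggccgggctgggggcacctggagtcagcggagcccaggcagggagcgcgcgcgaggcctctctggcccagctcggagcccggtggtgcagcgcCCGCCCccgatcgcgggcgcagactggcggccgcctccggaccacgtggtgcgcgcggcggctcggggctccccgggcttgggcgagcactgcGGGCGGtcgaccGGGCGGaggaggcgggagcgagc
Mgll: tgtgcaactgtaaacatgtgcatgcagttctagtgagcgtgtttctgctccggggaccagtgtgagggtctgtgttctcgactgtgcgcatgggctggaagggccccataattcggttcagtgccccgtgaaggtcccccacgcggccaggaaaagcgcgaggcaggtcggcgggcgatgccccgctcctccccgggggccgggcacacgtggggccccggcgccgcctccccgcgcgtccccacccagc
The Oprd1 sequence held 4 GC boxes and the Mgll sequence held 0. A GC box on either strand was found in 32.9% of 27025 promoters of the same length. G and C made up 80% of the Oprd1 sequence with 34 CpG dinucleotides, and 68% of the Mgll sequence with 23, where the median promoter had 6 CpG dinucleotides. Neither sequence held TATAAA (13% of promoters), TGACGTCA (1.62%) or CCAAT (34.5%) on either strand. RefSeq promoters were at hand for 7 of the 10 genes. Cnr1, lower in the astrocyte and S3 WT IP, had 79.2% G and C, 36 CpG dinucleotides and 5 GC boxes. Napepld had 69.6% G and C and 21 CpG dinucleotides, whereas Oprm1, Oprl1 and Faah had 0, 3 and 9 CpG dinucleotides. The windows of Cnr1, Oprl1 and Faah overlapped the annotated gene itself, unlike those of Oprd1 and Mgll, and Cnr1 had 3 start sites listed. Over these windows of unlike position, the traits did not set Oprd1 and Mgll apart from the other members.

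**Figure D1:**
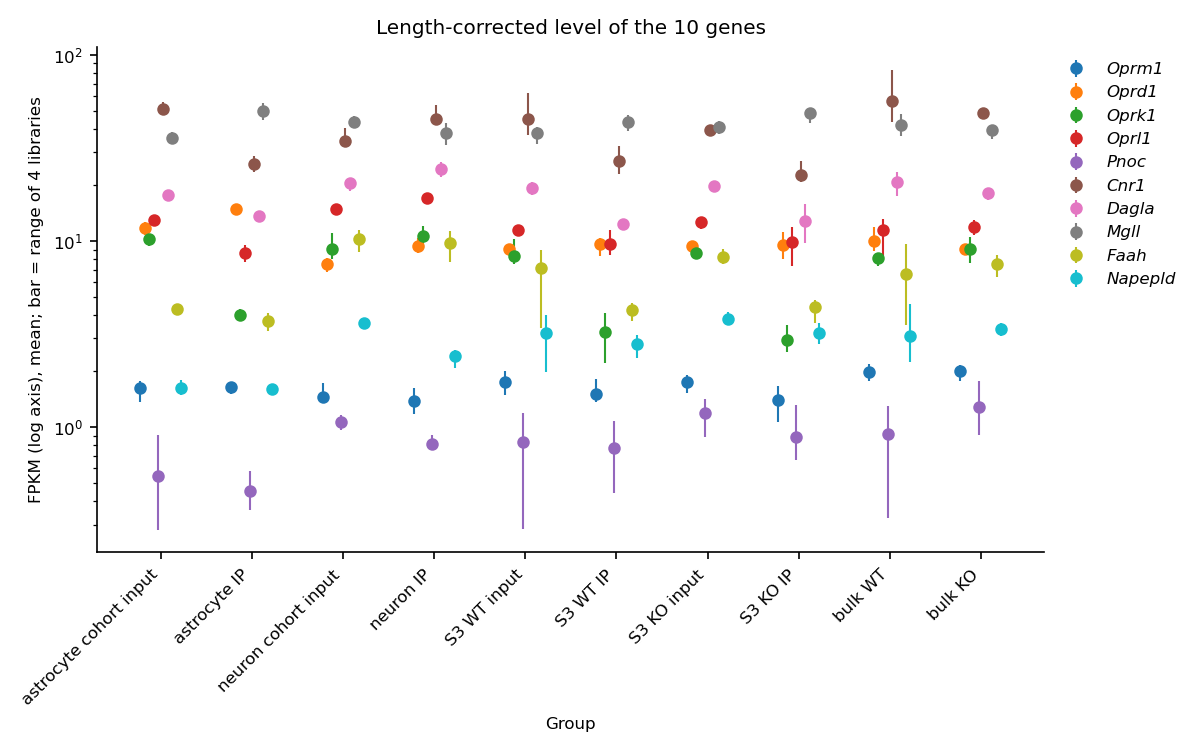
Length-corrected level (FPKM, log axis) of the 10 genes in the 10 groups. Points are means of 4 libraries and bars run from the lowest to the highest library. Cnr1 and Mgll lie at the top of every group and Pnoc at the bottom of every group.

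To compare genes with each other, counts were divided by exon length and depth (FPKM). In the astrocyte cohort input the order was Cnr1 (51.2 FPKM), Mgll (35.8), Dagla (17.7), Oprl1 (12.9), Oprd1 (11.7), Oprk1 (10.2), Faah (4.33), Oprm1 and Napepld (both 1.63) and Pnoc (0.544). Among neighbours in this order, the ranges of Oprl1 and Oprd1, of Oprd1 and Oprk1, and of Oprm1 and Napepld overlapped. The spread from the highest to the lowest gene was 94.1-fold. Thus the RNA of the CB1 receptor was more abundant than that of any opioid receptor, and the µ receptor gene Oprm1 was the least abundant of the 4 opioid receptor genes in each of the 10 groups.

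The order in the IPs is given as a description. In the astrocyte IP Mgll came first (49.7 FPKM) and Cnr1 second (26), with no overlap between libraries, and Oprd1 (14.8) stood above Oprl1 (8.57) and Oprk1 (4). In the neuron IP Cnr1 (45) and Mgll (37.9) overlapped, and Oprl1 (17.1) was the highest opioid receptor, above Oprk1 (10.6) and Oprd1 (9.41). The FPKM of Oprd1 was 1.15 times that of Oprk1 in the astrocyte cohort input and 3.7 times in its IP, and 0.827 and 0.888 times in the neuron cohort. In the SAPAP3 cohort it was 1.09 times in both inputs and 2.95 and 3.23 times in the S3 WT and S3 KO IP. The FPKM of Mgll was 8.27 times that of Faah in the astrocyte cohort input and 13.4 times in its IP, and 4.21 and 3.9 times in the neuron cohort (a description, with no test). These ratios in the inputs thus also lay apart between the cohorts.

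**Figure D2:**
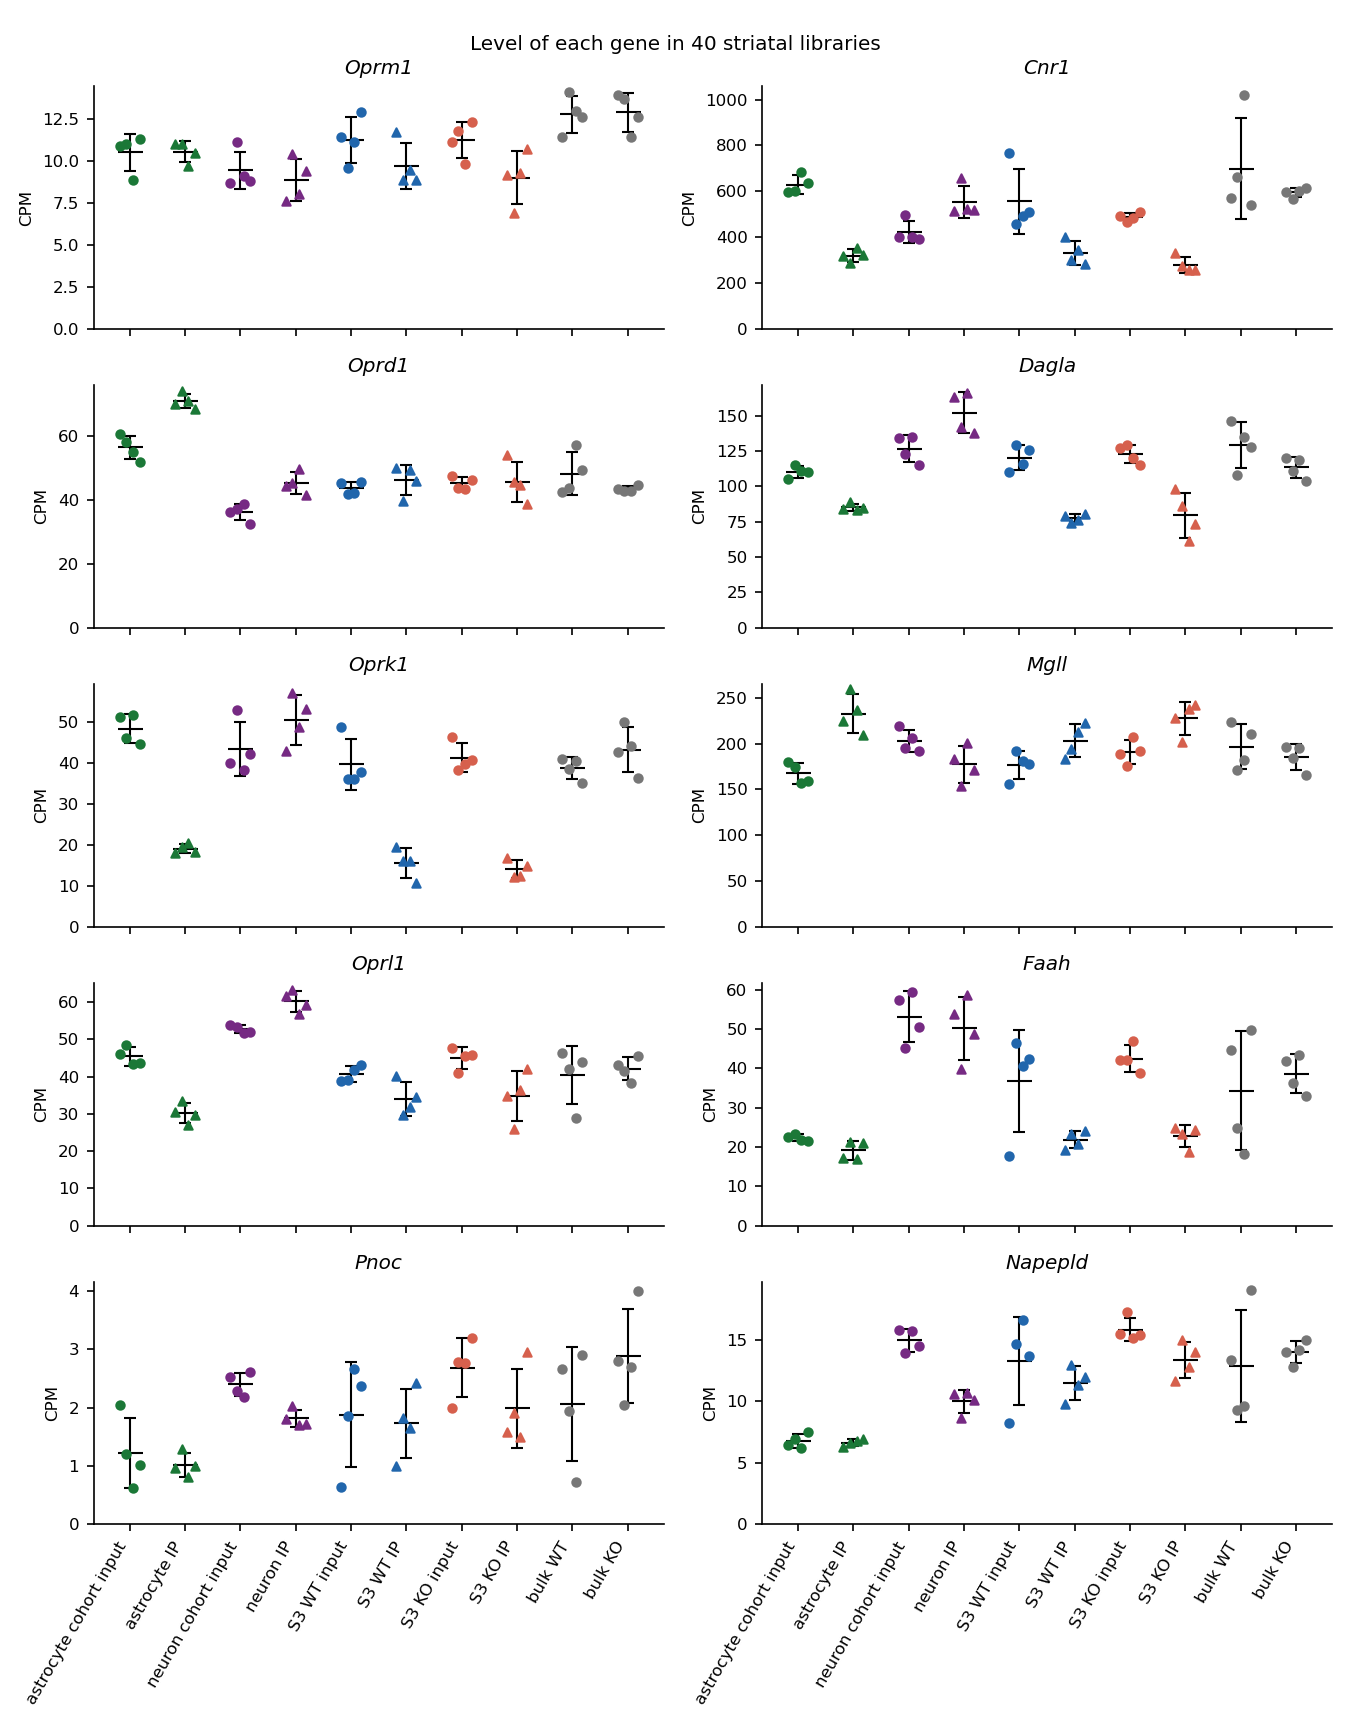
Level (CPM) of each gene in each of the 40 libraries. Circles are input and bulk libraries, triangles are IP libraries, and bars show the mean and SD of 4 libraries. The triangles of Oprk1 lie apart below the circles in the astrocyte, S3 WT and S3 KO cohorts and not in the neuron cohort.

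Which of these RNAs were enriched on astrocyte or neuron ribosomes was tested by comparing each IP with its own input (edgeR quasi-likelihood test, TMM scaling, Benjamini-Hochberg adjustment over all genes). The call needed both an adjusted p under 0.05 and a change of more than 1 on the log2 scale in either direction. In the astrocyte IP Oprk1 was the single member called, where 26.9% of all 15476 genes tested were called. At an adjusted p under 0.05 alone, 4 members were higher in the astrocyte IP (39.2% of all genes were higher) and 4 were lower (41.2%). In the neuron IP 0 members met both limits (16.3% of all genes did, edgeR), as with DESeq2 and limma-voom. At the adjusted p alone, 5 members were higher in the neuron IP (35.5% of all genes) and 1 was lower (35.9%), and 6 members had an unadjusted p under 0.05. Median log2(FC) of the 10 genes was -0.017 in the astrocyte IP (-0.025 for all genes) and 0.261 in the neuron IP (-0.002 for all genes).

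These directions are relative to the bulk of genes. With total counts in place of TMM factors, all IP over input values were 0.17 to 0.22 lower on the log2 scale, and the members split 2 higher and 5 lower in the astrocyte IP and 4 higher and 3 lower in the neuron IP. Scaled to 78 ribosomal protein genes, whose RNA was itself low in the IPs, the median of all genes moved to 1.14 in the astrocyte IP and 0.39 in the neuron IP. Under that scaling 9 members were higher and 0 lower in the astrocyte IP, and 8 higher and 0 lower in the neuron IP. A scaling shifts all genes alike, so the order of the members within a comparison is left as it is. In bulk tissue and IP alike, fewer cells of a type and less RNA per cell cannot be told apart.

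**Figure D3:**
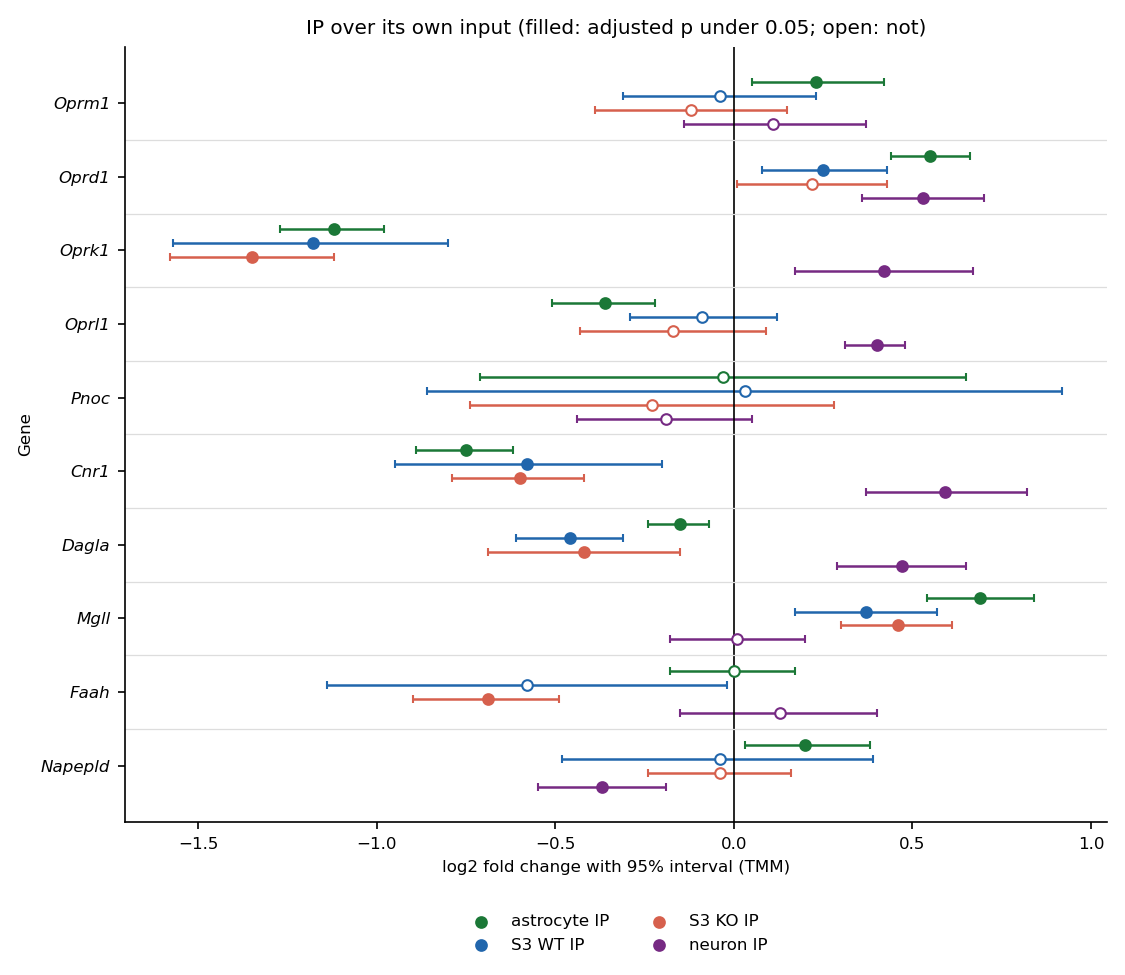
log2(FC) of IP over its own input for the 10 genes in the 4 RiboTag comparisons, with 95% intervals from the edgeR fit. Filled points have an adjusted p under 0.05. With TMM scaling Oprk1, Cnr1 and Dagla lie left of 0 in the astrocyte, S3 WT and S3 KO cohorts and right of 0 in the neuron cohort, and Mgll lies right of 0 in those 3 cohorts and at 0.01 in the neuron cohort, whereas on the ribosomal protein scale Oprk1 in the astrocyte cohort, Cnr1 in the astrocyte and S3 WT cohorts and Dagla in all 3 turn to values above 0.

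Oprk1 encodes the κ receptor, on which dynorphin acts. Its level was 51, 46.1, 51.5 and 44.5 CPM in the 4 astrocyte cohort inputs and 18, 19.4, 20.4 and 18.2 CPM in the IPs of the same animals. Every IP was lower than every input. The level fell to 0.459 of the input (log2(FC) -1.12 ± 0.065 SE, adjusted p = 2e-08, lower in 4 of 4 animals), and on the ribosomal protein scale the value was 0.04 (adjusted p = 0.65). In the neuron cohort the inputs had 40, 52.9, 38.3 and 42 CPM and the IPs had 42.9, 56.9, 48.6 and 53.1 CPM. These ranges overlapped, although each IP was above the input of its own number, by 1.07 to 1.27 times in CPM. The neuron IP was 1.34-fold higher after TMM scaling (log2(FC) 0.42 ± 0.11, adjusted p = 0.0066), which total-count scaling lowered to 0.22 (adjusted p = 0.11).

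Oprd1 encodes the δ receptor, which binds enkephalins. It was the member higher in the IP than in the input in both the astrocyte and the neuron cohort. The part of neuronal RNA in its astrocyte IP level was not tested. Inputs of the astrocyte cohort had 60.6, 58, 55 and 52 CPM and the IPs had 70.1, 73.9, 70.9 and 68.5 CPM, without overlap. In the neuron cohort the inputs lay at 36.2, 37.1, 38.7 and 32.6 CPM and the IPs at 44.3, 45.2, 49.7 and 41.5 CPM, again without overlap. The log2(FC) was 0.55 ± 0.05 in the astrocyte IP (adjusted p = 1.2e-06) and 0.53 ± 0.075 in the neuron IP (adjusted p = 0.00012), and both stayed above 0 with total counts (0.33 and 0.32).

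Oprl1 encodes the nociceptin receptor. Astrocyte cohort inputs had 46.1, 48.5, 43.4 and 43.5 CPM and the IPs had 30.6, 33.5, 27.1 and 29.8 CPM, so that all IPs were below all inputs. The neuron IPs, with 61.5, 63.3, 56.9 and 59.2 CPM, were all above the neuron cohort inputs, with 53.9, 53.4, 51.7 and 51.9 CPM. The log2(FC) was -0.36 ± 0.065 (adjusted p = 0.00029) in the astrocyte IP and 0.4 ± 0.038 (adjusted p = 8.2e-06) in the neuron IP. The value in the astrocyte IP turned to 0.80 when ribosomal protein genes set the scale.

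Oprm1 encodes the µ receptor, the target of morphine, which marks the striosome compartment of the striatum. Its level differed little between any of the groups, from 6.92 to 14.1 CPM over all 40 libraries. In the astrocyte cohort, inputs of 10.9, 11, 8.86 and 11.3 CPM and IPs of 11, 11, 9.71 and 10.5 CPM overlapped. The log2(FC) of 0.23 ± 0.083 (adjusted p = 0.024) came mainly with the TMM shift, since total counts gave 0.01 (adjusted p = 0.92), and without the input of animal 3 it was 0.17 (adjusted p = 0.056). In the neuron IP the log2(FC) was 0.11 with a 95% interval from -0.14 to 0.37 (adjusted p = 0.39).

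Pnoc encodes the precursor of nociceptin, the ligand of the Oprl1 receptor. At 0.633 to 2.05 CPM (19 to 51 reads) in astrocyte cohort inputs and 0.806 to 1.3 CPM in the IPs it was close to the limit of what this depth resolves. Its log2(FC) was -0.03 in the astrocyte IP (95% interval -0.71 to 0.65) and -0.19 in the neuron IP (-0.44 to 0.05, adjusted p = 0.14). A change within these intervals was not excluded.

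Cnr1 encodes the CB1 receptor. Astrocyte cohort inputs had 597, 600, 682 and 638 CPM and the IPs of animals 1, 2 and 4 had 316, 288 and 322 CPM, with animal 3 the highest. Each IP was at 0.48 to 0.53 of its own input. Neuron cohort inputs had 399, 496, 402 and 394 CPM and the IPs had 515, 658, 524 and 519 CPM. All neuron IPs were above all inputs, and library 2 of both groups was the highest. The log2(FC) was -0.75 ± 0.063 (adjusted p = 5.7e-07) in the astrocyte IP, where it turned to 0.41 on the ribosomal protein scale, and 0.59 ± 0.1 (adjusted p = 0.00037) in the neuron IP.

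Dagla encodes diacylglycerol lipase α, which makes 2-AG in the postsynaptic cell. The astrocyte cohort inputs of 105, 115, 111 and 110 CPM were all above the IPs of 83.7, 89.1, 83.2 and 84.5 CPM, and the log2(FC) was -0.15 ± 0.038 (adjusted p = 0.0033). In one fit over all 40 libraries this value was -0.08 (adjusted p = 0.45), and on the ribosomal protein scale it was 1.01. The neuron IPs had 163, 142, 166 and 138 CPM and lay above their inputs, which had 134, 123, 135 and 115 CPM. The log2(FC) there was 0.47 ± 0.081 (adjusted p = 0.00047).

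Mgll encodes monoacylglycerol lipase, which ends the action of 2-AG. Astrocyte cohort inputs had 180, 174, 157 and 159 CPM and the IPs had 225, 260, 237 and 209 CPM, without overlap. The astrocyte IP was 1.62-fold higher than its input (log2(FC) 0.69 ± 0.068, adjusted p = 2.2e-06, higher in 4 of 4 animals). In the neuron cohort the inputs had 219, 195, 206 and 192 CPM and the IPs had 183, 154, 201 and 171 CPM, and these ranges overlapped. The log2(FC) was 0.01 with a 95% interval from -0.18 to 0.2 (adjusted p = 0.91). It became -0.20 (adjusted p = 0.042) with total counts and 0.41 (adjusted p = 0.003) on the ribosomal protein scale.

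Napepld encodes the phospholipase D that releases anandamide from membrane lipids. Neuron cohort inputs of 15.8, 13.9, 15.7 and 14.5 CPM were all above the IPs of 10.6, 8.68, 10.7 and 10.1 CPM. The level fell to 0.773 of the input in the neuron IP (log2(FC) -0.37 ± 0.082, adjusted p = 0.0022), and with ribosomal protein scaling the value was 0.02. In the astrocyte cohort inputs of 6.44, 6.91, 6.2 and 7.49 CPM and IPs of 6.28, 6.62, 6.8 and 6.95 CPM overlapped. Their log2(FC) of 0.2 (adjusted p = 0.036) turned to -0.02 with total counts, and it was 0.17 to 0.20 with adjusted p from 0.062 to 0.091 when input 1, input 3, IP 3 or IP 4 was left out.

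Faah encodes the hydrolase of anandamide. Input and IP overlapped in the neuron cohort, with 45.2 to 59.4 CPM and 39.8 to 58.5 CPM. In the astrocyte cohort the IPs, from 17 to 21.2 CPM, lay below the inputs, from 21.5 to 23.4 CPM. After TMM scaling the log2(FC) was 0 in the astrocyte IP (95% interval -0.18 to 0.17) and 0.13 in the neuron IP (-0.15 to 0.4). With total counts the astrocyte value was -0.23 (adjusted p = 0.024). With the replicate number as a block the neuron value was 0.12 with an adjusted p of 0.011.

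Whether neuron and astrocyte enrichment differed was tested with an interaction term, the log2 IP over input ratio of the neuron cohort minus that of the astrocyte cohort. In the neuron cohort 4 members had a higher ratio (35.8% of all genes did) and 2 had a lower ratio (34.3%). Oprk1 differed by 1.55 ± 0.14 (adjusted p = 2.2e-08) and Cnr1 by 1.35 ± 0.13 (adjusted p = 4.1e-08). Oprl1 and Dagla differed by 0.76 ± 0.077 and 0.62 ± 0.097 (adjusted p = 1.3e-07 and 2.3e-05). In contrast, Mgll and Napepld differed by -0.69 ± 0.12 and -0.58 ± 0.11 (adjusted p = 5.7e-05 and 0.00024). With TMM scaling the 3 receptor genes and Dagla therefore stood on the neuronal side of this contrast. Mgll, of 2-AG degradation, and Napepld, of anandamide synthesis, stood on the astrocytic side. With TMM scaling close relatives did not share these directions throughout. Daglb, the second diacylglycerol lipase, had -0.02 (adjusted p = 0.86), and the hydrolases Abhd6 and Abhd12 had -0.49 and 0.54 (adjusted p = 8.9e-05 and 4.9e-08). On the ribosomal protein scale Daglb, Abhd6 and Abhd12 had -0.78, -1.26 and -0.22 (adjusted p = 4e-06, 3.7e-08 and 0.037).

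No difference between the cohorts was called for Oprd1, whose interval ran from -0.23 to 0.18, nor for Oprm1 (-0.43 to 0.19), Faah (-0.22 to 0.48) and Pnoc (-0.85 to 0.52). The 6 called differences were also called with RLE factors, total counts, DESeq2, limma-voom, no filter, the joint fit and the replicate block, and without any 1 library. Ribosomal protein scaling moved the median of all genes to -0.75 in this contrast and gave -0.01 for Oprl1 and -0.15 for Dagla, with Oprk1 at 0.78 and Cnr1 at 0.58. Under that scaling 8 members passed, 2 higher and 6 lower in the neuron cohort. Oprd1, Oprm1, Faah and Pnoc were among the lower ones, with adjusted p of 2.8e-05, 4.5e-05, 0.0047 and 0.017. The lack of a call for these genes thus also depended on the scaling. The cohorts differ in virus, sex, cortical markers and the counted level of Gapdh at once. These cannot be told apart from the cell type. Mean Gapdh was 634 CPM in input and 959 CPM in IP of the astrocyte cohort. In the neuron cohort it was 5.52 and 3.03 CPM, and the reason was not tested.

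In the SAPAP3 cohort the IP over input pattern was measured in WT and KO mice separately. Of the 10 genes Oprk1 alone was called with the fold limit, in S3 WT mice (23% of all genes called) and in S3 KO mice (23.8%). At the adjusted p alone, 2 members were higher (32.7% of all genes) and 3 lower (34.6%) in the S3 WT IP, and 1 was higher (36.1%) and 4 lower (35.9%) in the S3 KO IP. With total counts the splits were 0 higher and 5 lower in S3 WT, and 1 higher and 7 lower in S3 KO. On the ribosomal protein scale they were 5 higher and 1 lower in both genotypes. Median log2(FC) of the members was -0.066 in S3 WT and -0.201 in S3 KO, against -0.032 and -0.004 for all genes.

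Oprk1 had 48.7, 35.9, 36 and 37.7 CPM in S3 WT inputs and 19.4, 16, 15.9 and 10.6 CPM in the IPs of the same mice. In S3 KO mice it had 46.3, 38.1, 39.6 and 40.7 CPM in inputs and 16.8, 12, 12.4 and 14.8 CPM in IPs. Every IP was below every input in both genotypes. The log2(FC) was -1.18 ± 0.17 (adjusted p = 0.00021) and -1.35 ± 0.11 (adjusted p = 1.1e-06), and it stayed below 0 on the ribosomal protein scale (-0.51 and -0.80).

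Cnr1 and Dagla were lower in the IP of both genotypes. Cnr1 inputs had 766, 456, 493 and 511 CPM in S3 WT and 490, 468, 485 and 510 CPM in S3 KO, and its IPs had 400, 299, 343 and 284 CPM and 332, 273, 256 and 255 CPM. Its log2(FC) was -0.58 ± 0.17 (adjusted p = 0.012) in S3 WT and -0.6 ± 0.085 (adjusted p = 7.8e-05) in S3 KO, and -0.45 in S3 WT without animal 1. The log2(FC) of Dagla was -0.46 ± 0.065 (adjusted p = 0.00018) and -0.42 ± 0.12 (adjusted p = 0.0089), with inputs from 110 to 129 CPM against IPs from 74.1 to 80.4 CPM in S3 WT. On the ribosomal protein scale Cnr1 in S3 WT (0.11) and Dagla in both (0.20 and 0.13) were above 0, Cnr1 in S3 KO was at -0.05 (adjusted p = 0.69), and none of these 4 values passed.

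Mgll was the member higher in the IP of both genotypes. Inputs of 156, 192, 181 and 178 CPM and IPs of 183, 194, 213 and 223 CPM overlapped in S3 WT, although each animal's IP was above its input. In S3 KO, inputs of 189, 175, 207 and 192 CPM overlapped with IPs of 228, 202, 238 and 242 CPM through 1 library. The log2(FC) was 0.37 ± 0.09 (adjusted p = 0.0047) and 0.46 ± 0.071 (adjusted p = 0.00016), and total counts gave 0.20 (adjusted p = 0.059) and 0.25 (adjusted p = 0.0085).

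Oprd1 had 45.2, 41.8, 42.3 and 45.7 CPM in S3 WT inputs and 49.9, 39.8, 49.4 and 46 CPM in the IPs, which overlapped. It was higher in the S3 WT IP (log2(FC) 0.25 ± 0.079, adjusted p = 0.017) and missed the threshold in the S3 KO IP (0.22 ± 0.094, adjusted p = 0.053). The latter passed with the animal as a block (0.21, adjusted p = 0.026) and without IP 4 (0.31, adjusted p = 0.0055), and total counts gave 0.08 and 0.02 in S3 WT and S3 KO. Oprl1, Oprm1, Pnoc and Napepld passed in neither genotype. The lowest adjusted p among them was 0.21, for Oprl1 in S3 KO (log2(FC) -0.17, interval -0.43 to 0.09).

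Faah was lower in the IP of S3 KO mice. S3 KO inputs had 42.2, 42.1, 46.8 and 38.7 CPM and their IPs had 24.7, 23.4, 18.7 and 24.3 CPM, and the log2(FC) was -0.69 ± 0.092 (adjusted p = 4.9e-05). S3 WT inputs had 17.6, 46.3, 40.5 and 42.4 CPM and their IPs had 19.3, 23.3, 20.8 and 24 CPM, with a log2(FC) of -0.58 ± 0.25 (adjusted p = 0.064). The low input is that of animal 1. Without both libraries of that animal the log2(FC) was -0.72 (adjusted p = 0.00016), without its input alone it was -0.81 (adjusted p = 8.7e-05), and with the animal as a block it was -0.51 (adjusted p = 0.019). On the ribosomal protein scale neither genotype passed (-0.14 in S3 KO, adjusted p = 0.22, and 0.05 in S3 WT, adjusted p = 0.86). In these 2 groups all 4 cortical markers had negative log2(FC), with medians of -1.69 in S3 KO and -1.83 in S3 WT, whereas in the astrocyte cohort their median was 0.90. The part of cortical RNA in the Faah values was not tested here.

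Other genes of the 2 systems give the setting. Of 23 opioid system genes (peptide precursors, their processing enzymes, and signalling partners of the receptors), 9 were higher and 14 lower in the astrocyte IP, with a median log2(FC) of -0.356. In the neuron IP 10 were higher and 5 lower, with a median of 0.069. Of all genes, 39.2% were higher and 41.2% lower in the astrocyte IP, and 35.5% and 35.9% in the neuron IP, so the 9 higher genes are at the share of all genes. On the ribosomal protein scale the splits were 21 and 0 in the astrocyte IP and 18 and 1 in the neuron IP, and with total counts 7 and 14, and 6 and 10. The precursor of enkephalin, Penk, had 1290 ± 78.8 CPM (SD, n = 4) in astrocyte cohort inputs and 645 ± 53.1 CPM in the IPs, and 709 ± 119 against 1300 ± 166 CPM in the neuron cohort. Its log2(FC) was -0.78 (adjusted p = 4.3e-07) in the astrocyte IP and 1.08 (adjusted p = 2.4e-05) in the neuron IP, the former turning to 0.38 on the ribosomal protein scale. The precursor of dynorphin, Pdyn, had -1.08 and 0.73 (adjusted p = 6.1e-08 and 0.00016), and 0.08 and 1.13 on that scale. Pomc, the precursor of β-endorphin, was present at 1.13 to 1.77 CPM in astrocyte cohort inputs, and its log2(FC) was -0.79 (adjusted p = 0.0043) in the astrocyte IP (0.36 on the ribosomal protein scale) and -0.1 (adjusted p = 0.59) in the neuron IP.

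Receptor coupling and peptide processing genes were found on both sides. In the astrocyte IP the highest of the list were Cpe, a carboxypeptidase that trims peptide precursors (log2(FC) 2.3), Gnao1, the α subunit of Go (1.28), and Gnai2, the α subunit of one Gi protein (1.19), with adjusted p of 6.6e-12, 5.1e-10 and 1.3e-10. Pdyn was the 1 lower gene past both limits. In the neuron IP Penk was the 1 gene of the list past both limits. The ratio was higher in the neuron cohort for 13 of 23 genes and lower for 7 (35.8% and 34.3% of all genes). Total counts gave the same split, whereas on the ribosomal protein scale 5 were higher and 12 lower in the neuron cohort. Penk (1.86), Pdyn (1.82) and Rgs4, a regulator of G protein signalling (1.71), were higher there under all 3 scalings. Cpe (-2.36), Gnai2 (-2.02) and Gnao1 (-1.3) were lower there under all 3 scalings.

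Of 23 further endocannabinoid genes 21 passed the filter, with 13 higher and 6 lower in the astrocyte IP (median log2(FC) 0.542) and 7 higher and 9 lower in the neuron IP (median -0.064), where the shares of all genes were the 39.2% and 41.2% and the 35.5% and 35.9% given above. With ribosomal protein genes as the scale the splits were 19 and 2, and 11 and 5, and with total counts 10 and 7, and 3 and 10. Trpv1 and Gpr119, receptors that some of these lipids activate, did not pass it in any comparison and had at most 10 and 1 reads in a library of these 2 cohorts. Ppara, a nuclear receptor for N-acylethanolamines, had 6.19 ± 0.923 CPM in inputs and 29.5 ± 2.87 CPM in IPs (log2(FC) 2.48, adjusted p = 1.5e-09). Abhd4, a lipase of an alternative route to anandamide, rose by 2.4 (adjusted p = 2e-12), and Plcb3, a phospholipase C that yields diacylglycerol, by 2.33 (adjusted p = 2.7e-12). Naaa, the acid amidase of N-acylethanolamines, had 36.6 ± 1.28 CPM in inputs and 109 ± 9.41 CPM in IPs, with a log2(FC) of 1.8 (adjusted p = 2.8e-10). In the neuron IP Naaa was lower (-0.65, adjusted p = 3.4e-05), and so was Ppara (-0.94, adjusted p = 7.4e-05), under all 3 scalings.

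Close relatives of the members differed from one another. Daglb, the second diacylglycerol lipase, did not pass in the astrocyte IP (0.13, adjusted p = 0.067) or the neuron IP (0.11, adjusted p = 0.088). Abhd6, a further hydrolase of 2-AG, was higher in the astrocyte IP (0.54, adjusted p = 3.3e-07) and had 0.06 in the neuron IP (adjusted p = 0.49). Abhd12 was lower in the astrocyte IP (-0.39, adjusted p = 2.3e-06) and higher in the neuron IP (0.15, adjusted p = 0.0039), and the values were 0.77 and 0.55 on the ribosomal protein scale and -0.61 and -0.05 with total counts. Cnrip1, which binds the tail of CB1, was higher in both (0.29 and 0.19, adjusted p = 0.0016 and 0.0025), with 0.07 and -0.02 from total counts. Cnr2, the CB2 receptor known from microglia, had 10 to 25 reads in astrocyte cohort inputs and 2 to 4 in IPs, and was lower in both IPs (-3.38 and -3.69, adjusted p = 2.3e-05 and 3.6e-05), as were all 8 microglial markers. Gdpd3, a phosphodiesterase of the N-acylethanolamine route, was also lower in both (-2.9 and -4.1, adjusted p = 8.1e-05 and 7.5e-06), from at most 45 reads.

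The lists were also counted in the SAPAP3 cohort. In the S3 WT and S3 KO IP, 6 and 6 opioid system genes were higher and 11 and 15 lower (medians -0.451 and -0.496). Of the endocannabinoid genes tested, 8 and 11 were higher and 6 and 7 lower (medians 0.135 and 0.228). The shares of all genes were 32.7% higher and 34.6% lower in S3 WT, and 36.1% and 35.9% in S3 KO. On the ribosomal protein scale the opioid splits were 9 and 3 in S3 WT and 8 and 6 in S3 KO, and those of the endocannabinoid genes 15 and 2, and 15 and 3. With total counts they were 5 and 13, 5 and 16, 7 and 9, and 7 and 9. Penk had -0.45 (adjusted p = 0.16) and -0.48 (adjusted p = 0.0023), and 0.24 and 0.08 on the ribosomal protein scale. Kcnj6, a potassium channel subunit opened by Gi-coupled receptors, led the lower genes with -1.55 (adjusted p = 0.0068) and -1.3 (adjusted p = 0.00013). In the astrocyte IP it was -0.47 (adjusted p = 0.045), and 0.70 on the ribosomal protein scale.

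**Figure D4:**
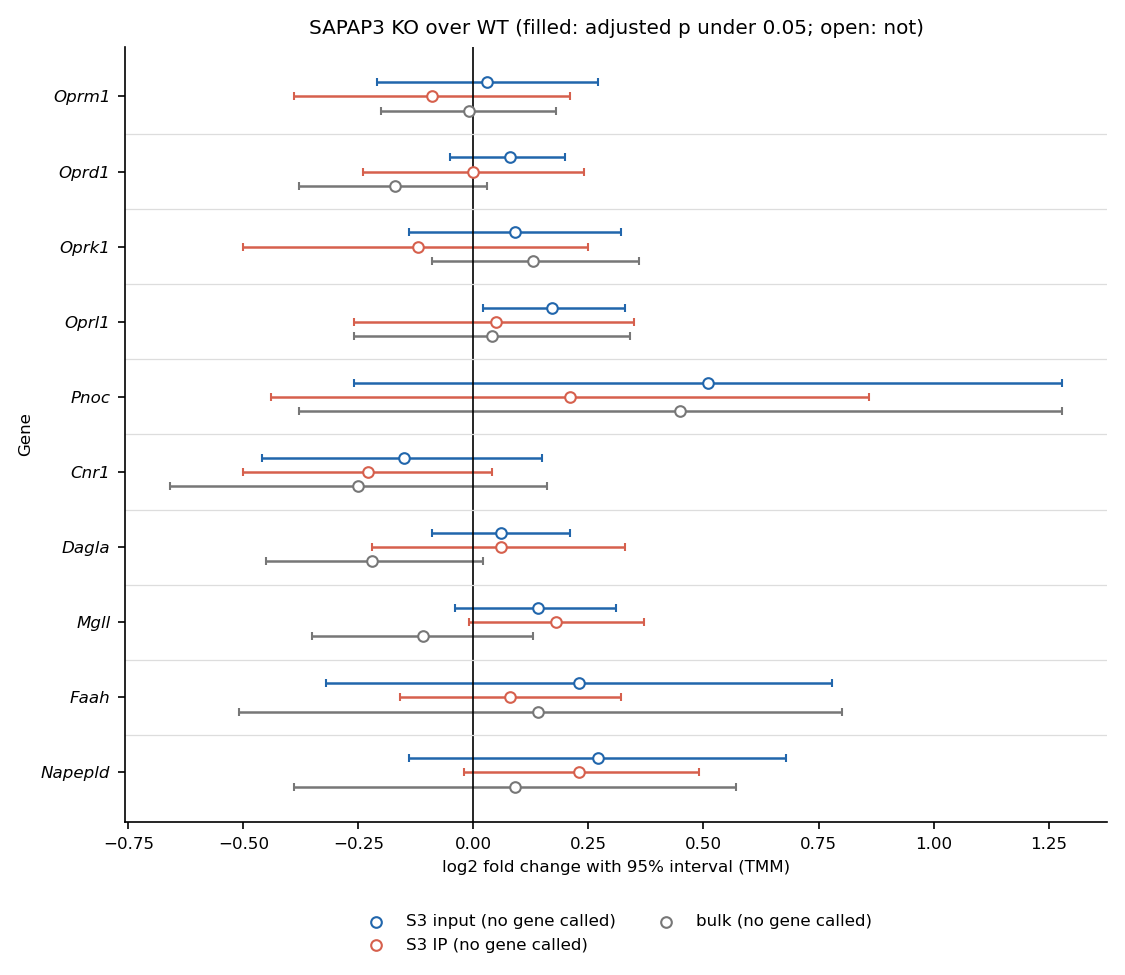
log2(FC) of SAPAP3 KO over WT for the 10 genes in S3 inputs, S3 IPs and bulk RNA, with 95% intervals from the edgeR fit. All points are open, since none had an adjusted p under 0.05, and 29 of the 30 intervals include 0, the exception being Oprl1 in S3 inputs.

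The effect of the genotype was then tested on the same genes. In S3 inputs 0 of the 10 members differed between KO and WT (edgeR, adjusted p under 0.05), where 0.00641% of all genes did. One member, Oprl1, had an unadjusted p under 0.05. DESeq2 and limma-voom called 0 members as well. In the S3 IP 0 members were called (0.0263% of all genes), with 0 at an unadjusted p under 0.05. In bulk RNA 0 members were called (0% of all genes), with 0 at an unadjusted p under 0.05. The targeted gene Dlgap3 itself was not called there (log2(FC) -1.14, adjusted p = 0.32), whereas it was in S3 inputs (-1.19, adjusted p = 0.007) and in the S3 IP (-1.4, adjusted p = 0.028). DESeq2 and limma-voom called 0 members in both. Xist reached 197 CPM in bulk WT libraries and no more than 0.0331 CPM in bulk KO libraries, so sex was not balanced there. With Xist as a covariate 0 members were called in S3 inputs, the S3 IP and bulk RNA. That covariate turned the sign of 5 members in bulk RNA and of 2 in the S3 IP. Medians of the members were 0.113, 0.052 and 0.014, against -0.002, 0.006 and 0.001 for all genes.

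Oprl1 had 38.9, 39, 41.7 and 43.1 CPM in S3 WT inputs and 47.7, 40.9, 45.5 and 45.8 CPM in S3 KO inputs, overlapping through 1 KO library. Its log2(FC) was 0.17 ± 0.069 (adjusted p = 0.73). In the IP it was 0.05 and in bulk RNA 0.04, with intervals from -0.26 to 0.35 and from -0.26 to 0.34. The opioid receptor genes Oprm1, Oprd1 and Oprk1 had intervals within -0.21 and 0.32 in S3 inputs, -0.5 and 0.25 in the IP, and -0.38 and 0.36 in bulk RNA. A KO effect beyond these bounds was outside the interval for these genes. The bounds are not limits of detection, and the lack of a call does not show that a KO effect within them is absent.

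For the endocannabinoid genes the intervals were wider where libraries stood apart. In S3 inputs Dagla had 0.06 (-0.09 to 0.21) and Mgll 0.14 (-0.04 to 0.31), whereas Faah had 0.23 (-0.32 to 0.78), Napepld 0.27 (-0.14 to 0.68) and Cnr1 -0.15 (-0.46 to 0.15). In the IP the largest values were -0.23 for Cnr1 (-0.5 to 0.04, adjusted p = 1) and 0.23 for Napepld (-0.02 to 0.49, adjusted p = 1). In bulk RNA Dagla had -0.22 (-0.45 to 0.02, adjusted p = 0.98) and Faah 0.14 (-0.51 to 0.8). Pnoc had the widest intervals, from -0.26 to 1.28 in S3 inputs and -0.38 to 1.28 in bulk RNA. The change of the KO effect between IP and input was called for 0 members and 0% of all genes (edgeR, 0 members at an unadjusted p under 0.05, and 0 by DESeq2 and limma-voom).

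**Figure D5:**
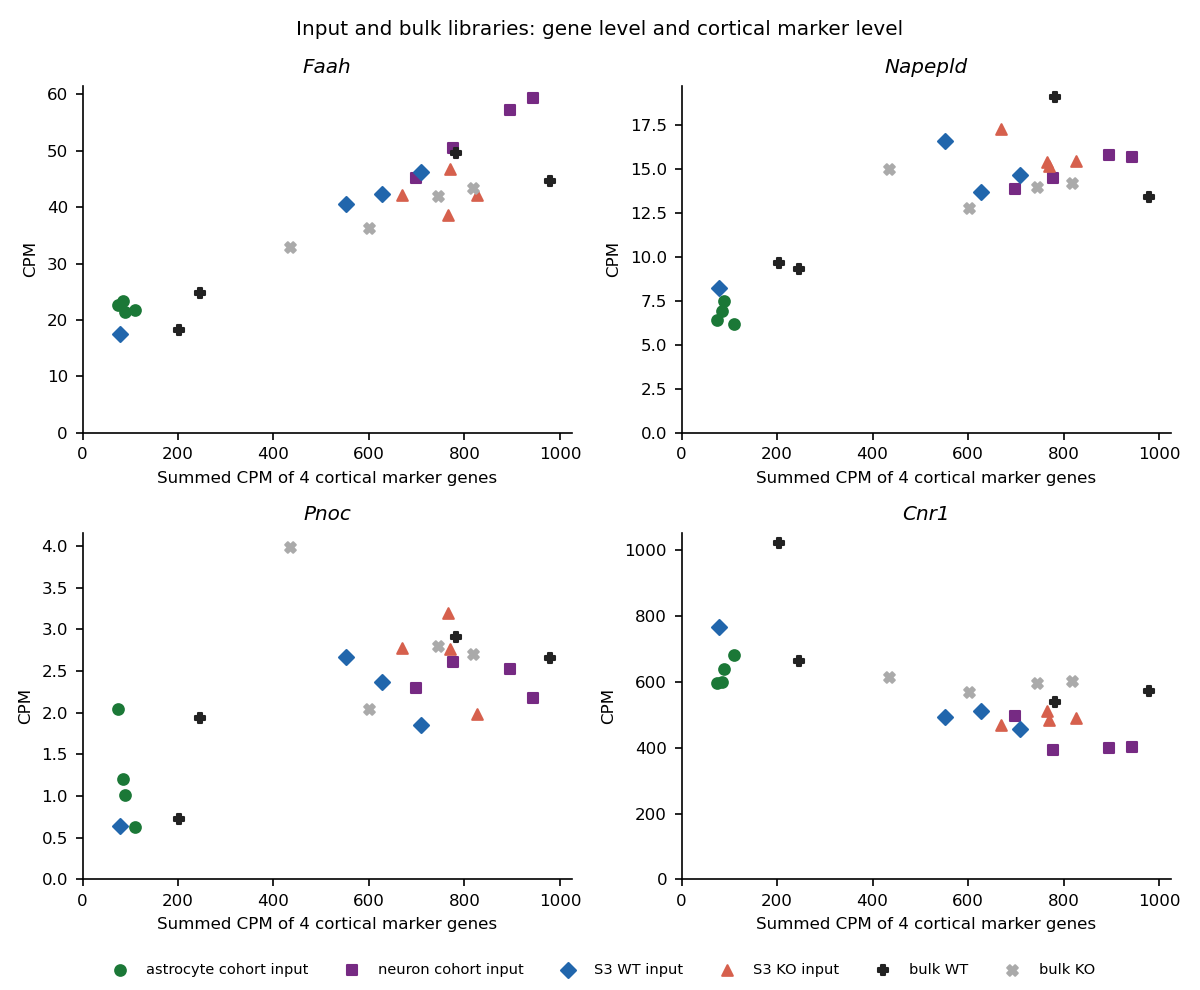
Level (CPM) of Faah, Napepld, Pnoc and Cnr1 in the 24 input and bulk libraries against the summed level (CPM) of 4 cortical projection neuron markers. Each point is 1 library. The 7 libraries with under 300 CPM of the markers have at most 24.8 CPM of Faah, where the other libraries have at least 32.9 CPM.

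The libraries low in cortical markers were also low or high in several members, of which 4 are shown, chosen after their values were seen. S3 WT input 1, with 78.4 CPM of the markers, had 17.6 CPM of Faah against 40.5 to 46.3 CPM in the other 3, 8.23 CPM of Napepld against 13.7 to 16.6, 0.64 CPM of Pnoc against 1.85 to 2.67, and 766 CPM of Cnr1 against 456 to 511. Bulk WT 2 and 3 had 24.8 and 18.2 CPM of Faah against 44.6 and 49.6 in bulk WT 1 and 4, and 662 and 1020 CPM of Cnr1 against 572 and 538. Oprk1 in S3 WT input 1 (48.7 CPM, against 35.9 to 37.7) and Oprl1 in bulk WT 3 (28.9 CPM, against 42.1 to 46.3) also lay outside the range of their group's other libraries. The 4 astrocyte cohort inputs, which came from another set of mice, had 21.5 to 23.4 CPM of Faah and 597 to 682 CPM of Cnr1. Summed indirect pathway markers were high in the libraries low in cortical markers. They had 2090 CPM in S3 WT input 1, against 989 to 1240 CPM in the other 3. Bulk WT 2 and 3 had 1730 and 2100 CPM, against 1130 and 938 CPM in bulk WT 1 and 4, and astrocyte cohort inputs had 1850 to 2060 CPM. Cortical and medium spiny neuron RNA thus cannot be told apart here. As a description across cohorts, with no test, Faah and Napepld were lower in each of these 7 libraries than in any other input or bulk library, and Cnr1 lay at 597 CPM or above, where the other libraries reached up to 615 CPM, and the part of cortical RNA in their level was not tested beyond the fits below.

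With the log2 summed cortical markers as a covariate the KO effect in S3 inputs was -0.12 for Faah, 0.02 for Napepld, 0.09 for Pnoc and 0.08 for Cnr1, and 0 members were called. In bulk RNA the same covariate gave -0.05, -0.02, 0.35 and -0.08, and 0 members were called, with 2 at an unadjusted p under 0.05, Dagla (-0.27, adjusted p = 0.43) and Mgll (-0.20, adjusted p = 0.41). Without bulk WT 2 and 3 the values were -0.32 for Faah, -0.25 for Napepld and 0.06 for Cnr1. In that fit Dagla (-0.31, adjusted p = 0.20), Mgll (-0.27, adjusted p = 0.24) and Faah (adjusted p = 0.30) had an unadjusted p under 0.05, with 2 WT libraries left. The sign of the KO over WT value in bulk RNA thus depended on these 2 WT libraries for 5 members, among them Faah, Napepld and Cnr1.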

How the data were processed

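The 40 mouse striatal libraries were analysed from raw counts per gene symbol that the authors deposited (all 40 columns used, 0 left out). The submitters' processing notes name STAR, HTSeq and mm10. Versions, annotation and strand setting are not given in the sources used here, and the labels and the study's methods name different library kits and sequencers. Counts were deposited as whole numbers, without normalization. Library totals ran from 23438112 to 84109800 reads. No pair of libraries in a group agreed within sampling noise (lowest chi-square per degree of freedom 3.83).

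CPM were computed with total counts. FPKM used merged exon lengths of RefSeq GRCm38.p6, found for 99.3% of symbols. Comparisons used edgeR 4.0.16 in R 4.3.3 (filterByExpr, TMM, glmQLFit and glmQLFTest, Benjamini-Hochberg adjustment over all genes tested), each fitted on the groups it compares, and the code was tested on simulated data. SE and 95% intervals come from the same fit. Replicates are separate animals by the labels, except that the neuron cohort gives input and IP different animal numbers. IP and input share an animal in the other cohorts and a number in the neuron cohort, and same-numbered libraries deviated together in all 4 (lowest correlation 0.258 in the astrocyte cohort, 0.483 in the neuron cohort, 0.516 in S3 WT and 0.438 in S3 KO), so the pairs were also fitted as a block. In the genotype comparisons the number pairs no animals, except that bulk WT 1 and bulk KO 1 carry the same animal number.

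Members, pathway lists and marker lists were chosen with earlier results of these data known. Named were all 10 members, from each pathway list up to 3 called genes with the highest and 3 with the lowest log2(FC), and 9 close relatives. Alternatives were RLE factors, total counts, scaling to 78 ribosomal protein genes, DESeq2 1.42.0, limma-voom (limma 3.58.1), testing without a filter, testing only genes that exceeded 5 FPKM in 4 or more libraries, a joint fit of 40 libraries, Xist as a covariate, and leaving out each library. The cortical marker covariate and leaving out the libraries that stood apart were added after the data were seen. Some genes are not reported here and were left out of the lists.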

Additional observations from a re-analysis of the deposited data

Results flagged for a closer look

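Dixon's test was run on the CPM of the 10 genes in each of the 10 groups, 100 groups of 4 in all, and 6 passed its 95% critical value. By chance about 1 in 20 groups would do so. Cnr1 was apart in library 2 of the neuron cohort, with 496 CPM in the input (394 to 402 in the other 3) and 658 CPM in the IP (515 to 524). The same input had the highest Oprm1, with 11.1 CPM against 8.7 to 9.1. Oprm1 was also apart, at 8.86 CPM, in astrocyte cohort input 3, against 10.9 to 11.3. Oprk1 had 48.7 CPM in S3 WT input 1, the library with low cortical markers, against 35.9 to 37.7. Napepld had 17.3 CPM in S3 KO input 2, against 15.2 to 15.5.

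For 6 genes the IP over input ratio differed between the neuron and the astrocyte cohort by the interaction test. The log2 differences, neuron minus astrocyte, were 1.55 for Oprk1, 1.35 for Cnr1, 0.76 for Oprl1, 0.62 for Dagla, -0.69 for Mgll and -0.58 for Napepld.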

How the results depend on the processing

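Each comparison was repeated under the alternatives, one at a time, for the 10 genes and for all genes. The count of members past both limits moved by over 1.5 times in 1 comparison, to 7 from 1 in the astrocyte IP with ribosomal protein scaling, under which all genes called rose to 9649 from 4157. That scaling gave members higher and lower of 9 and 0 in the astrocyte IP (4 and 4 in the fit reported), 8 and 0 in the neuron IP (5 and 1), 5 and 1 in S3 WT (2 and 3), 5 and 1 in S3 KO (1 and 4), and 2 and 6 in neuron minus astrocyte (4 and 2). It turned the sign of Oprk1 (0.04), Oprl1 (0.80), Pnoc (1.13), Cnr1 (0.41), Dagla (1.01) and Faah (1.16) in the astrocyte IP and of Napepld (0.02) in the neuron IP. It did so for Oprm1 (0.63), Oprl1 (0.58), Cnr1 (0.11), Dagla (0.20) and Napepld (0.59) in S3 WT, for Oprm1 (0.43), Oprl1 (0.38), Dagla (0.13) and Napepld (0.52) in S3 KO, and for Oprl1 (-0.01), Dagla (-0.15) and Faah (-0.64) in neuron minus astrocyte. Total counts turned Napepld in the astrocyte IP (-0.02) and Mgll in the neuron IP (-0.20), and gave 2 members higher in the astrocyte IP, 3 lower in the neuron IP, 0 higher and 5 lower in S3 WT and 7 lower in S3 KO. Among values that had not passed the test, total counts also turned Oprm1 (-0.09) and Faah (-0.08) in the neuron IP and Pnoc (-0.14) in S3 WT, and the ribosomal protein scale turned Pnoc in the neuron IP (0.21) and in S3 KO (0.32) and Faah in S3 WT (0.05). Both follow from their construction, a shift common to all genes.

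The FPKM filter tested fewer genes, with 1701 called in the astrocyte IP, 507 (2635 in the fit reported) in the neuron IP, 1269 (3590) in S3 WT, 1421 (3713) in S3 KO, 7169 (11469) in neuron minus astrocyte and 2 (4) in the S3 IP by genotype. It left 2 members higher in the astrocyte IP, 0 lower in the neuron IP and 1 lower in neuron minus astrocyte. No filter, the joint fit and the replicate block each gave 2 members higher in S3 KO. The block brought Faah past the threshold in the neuron and S3 WT IP and Oprd1 in S3 KO, changed no other call of a member, and gave 2 genes called in the S3 IP by genotype. DESeq2 called 8 genes by genotype in S3 inputs, 8 in the S3 IP, 17 in bulk RNA and 1 for the S3 interaction, and the joint fit 8, 18 and 1 in inputs, bulk and interaction. The cortical covariate left 2 genes called in the S3 IP, and 5 were called in bulk RNA without WT 2 and 3. The cause of these shifts was not tested.

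Leaving out 1 library at a time, the members higher in the astrocyte IP ranged from 2 to 4 and in S3 KO from 1 to 2. Genes called by genotype ranged from 0 to 1 in S3 inputs, 0 to 3 in the S3 IP and 0 to 1 in bulk RNA. TMM in place of total counts left 67 of 100 group means of CPM within 1 SD. Depth limits Pnoc, and 4 libraries a group limit the genotype comparisons.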
